A study of Danio rerio with 3 samples.

Results

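The outflow tract was compared with the atrioventricular (AV) canal, the other region of the embryonic zebrafish heart in which endocardial cushions form. Both regions were taken as windows of tissue sections along the heart, and the reads of each window were summed within each heart. The outflow tract comprised 18 sections, namely sections 4 to 10 of heart 1, 91 to 96 of heart 2 and 35 to 39 of heart 3. The AV canal comprised 24 sections, namely sections 19 to 26 of heart 1, 70 to 79 of heart 2 and 24 to 29 of heart 3. Together these were 42 of the 117 tissue sections, and gave 6 sums, 1 for each region in each of 3 hearts.

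The samples were 3 untreated wild-type hearts of the TL strain, dissected at 48 hours post fertilization, left unfixed and cut in 10 µm sections along the axis between the outflow and inflow poles. RNA of each section was barcoded, pooled and sequenced (tomo-seq with the CEL-seq protocol, which reads the 3′ ends of transcripts). The sum of a region in 1 heart was the unit of comparison, and both regions came from the same animals, so the heart was a block. Sections were cut across a looped heart, and a section can hold cells of more than 1 region and of tissue left on the heart by dissection. In such sums, fewer cells of a type and less RNA per cell cannot be told apart.

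At this stage the outflow tract is the arterial end of the heart, added late by progenitors known as the second heart field and by neural crest, and it goes on into the pharyngeal arch arteries. Its wall acquires smooth muscle and elastic matrix. The AV canal lies between the atrium and the ventricle, and its slowly conducting muscle is set apart by Bmp and Tbx2 activity. In both places endocardial cells line a swelling rich in hyaluronan, the cushion, from which the valves arise. The enzyme Has2 makes this hyaluronan.

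Depth differed between the sums. The outflow tract held 1667108, 2895368 and 14700 gene reads in hearts 1, 2 and 3, and the AV canal held 1962716, 305324 and 1633009. Genes detected numbered 10188, 11433 and 392 in the outflow tract and 9166, 4546 and 7530 in the AV canal. The most abundant row, which has no gene name, took between 4.6% and 43.3% of the reads of a sum. Levels are given below as reads per 10000 gene reads. A count of 0 allowed a level of up to 2.04 in the outflow tract of heart 3 and 0.0983 in the AV canal of heart 2 (3 reads of the total), against 0.0104 to 0.0184 in the other sums. Intervals and limits of this kind cover counting error only, since a read may be a PCR copy.

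The outflow window of heart 3 stood apart from those of hearts 1 and 2, and against its label. Its 5 sections held 211 to 6182 reads each. Genes of heart muscle gave 1101 of every 10000 reads there, against 22.5 and 5.69 in the outflow sums of hearts 1 and 2, and 500, 563 and 889 in the AV canal of hearts 1, 2 and 3. No read of the pharyngeal mesenchyme, cartilage or guidance gene lists was found in it. Each comparison is therefore given for 3 hearts and for hearts 1 and 2 alone, and the named results rest on hearts 1 and 2.

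The cushion markers has2 and anxa5b did not separate the regions. Reads of has2 (ENSDARG00000036987), one of the genes by which the regions of heart 1 were placed, numbered 164, 0 and 0 in the outflow tract and 101, 24 and 0 in the AV canal of hearts 1, 2 and 3. Its level was 0.984 in the outflow tract (95% Wilson interval 0.844 to 1.15) and 0.515 in the AV canal (0.424 to 0.625) of heart 1. In heart 2 it was read in the AV canal and not in the outflow tract, and in heart 3 in neither region. The has2 reads in the AV canal of heart 2 came from 2 of its 10 sections. Outside both windows has2 had 43, 79 and 24 reads in hearts 1, 2 and 3, at levels of 0.190, 0.387 and 0.255. The presence of cushion cells in the windows of heart 3 and in the outflow window of heart 2 could therefore not be read from has2.

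The calcium-binding annexin gene anxa5b (ENSDARG00000016470) had levels of 0.396, 0.556 and 0 in the outflow tract and 0.892, 0.360 and 0.0980 in the AV canal. It was higher in the AV canal of heart 1 and in the outflow tract of heart 2, and the groups overlapped. The fitted log2 difference of hearts 1 and 2, outflow tract minus AV canal and relative to the median of all genes, was -1.46 (SE 1.71, adjusted p = 1, quasi-likelihood test), and -0.08 when sections were weighted equally. In heart 2 its level in the sections outside both windows, 1.43, was above that of either region.

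Across 3 hearts no gene passed the test, with 0 of 10463 genes higher in the outflow tract (0%) and 0 higher in the AV canal (0%) at an adjusted p under 0.05. The lowest adjusted p was 1. On simulated counts the fit of 3 hearts called no gene at any size of change tried, so that the absence of calls carries no information on these genes. At an unadjusted p under 0.05, 42 genes (0.401%) were higher in the outflow tract and 121 (1.16%) were higher in the AV canal. Fits with limma called 0 and 1 genes on log2 CPM, and 0 and 3 on mean section shares, in the same order.

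In hearts 1 and 2, 67 of 9609 genes (0.697%) were higher in the outflow tract and 57 (0.593%) were higher in the AV canal. At an unadjusted p under 0.05 these were 441 (4.59%) and 162 (1.69%). Heart muscle genes made up 25 of the 57 and 0 of the 67. Genes of pharyngeal mesenchyme, fibrillar matrix, skin and cell guidance were among the 67. The fold change of each of the 67 and of the 57 had the same sign in heart 1 and in heart 2. As the genes were selected by a fit of both hearts together, this agreement is not separate support.

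These calls have clear limits. Of the 67 genes, 56 had no read in the AV canal of heart 2, where 4546 genes were detected in all. In the AV canal of both hearts 37 of the 67 had no read, and these entered the test only through outflow reads. With 1 residual degree of freedom per gene, the spread was borrowed across genes, and a fit with a common dispersion that let no gene vary less than the count model allows called 0 and 0. Without the sections of heart 1 that also lie in the ventricle (19 to 22), 101 and 21 genes were called, and each gene named below by rank kept its call. The median log2 difference over all genes was 1.34 in hearts 1 and 2. Named differences are therefore given relative to it (each with its standard error, SE), whereas the p-value tests the difference before that shift. Medians of gene lists are given without the shift, to be read beside 1.34. Calls within lists are to be read beside the 0.697% and 0.593% over all genes. With simulated counts, the fit of hearts 1 and 2 called 0 of 25 genes at each true log2 change of 2, 4, -2 and -4. At 8 and -8 it called 8 and 10 of 25. A gene or list without a call is therefore not shown to be alike in both regions.

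Heart 3 carried little information on the 67 genes. Its outflow tract held reads of 392 genes in all, beside the 10463 genes tested across 3 hearts. Of the 67, 65 had no read in its outflow tract. The sign was that of hearts 1 and 2 in 2 and the opposite in 36, and 29 had no read in either region. In 15 of the 67 the level in the outflow tract of both hearts 1 and 2 lay above the 2.04 that a count of 0 allowed in heart 3, and all 15 had no read there. That limit covers counting error only, and why those 15 had no read in heart 3 was not tested. Of the 57 genes higher in the AV canal, 34 had the same sign in heart 3, 22 the opposite sign and 1 no reads. As 28 of the 57 had no read in the outflow tract of heart 3, a same sign that rests on such a 0 carries little information.

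**Figure D1:**
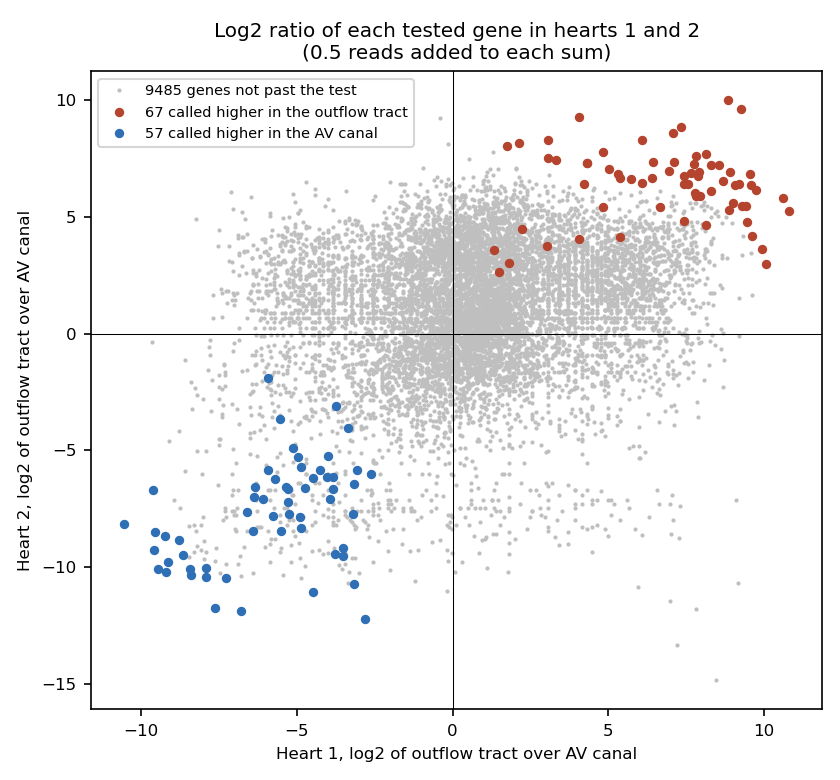
Log2 ratio of outflow tract over AV canal for each tested gene in heart 1 (horizontal axis) and heart 2 (vertical axis), with 0.5 reads added to each sum. The 67 genes called higher in the outflow tract (red) span 1.32 to 10.79 in heart 1 and 2.63 to 9.99 in heart 2, the 57 called higher in the AV canal (blue) span -10.53 to -2.61 and -12.22 to -1.89, and the 9485 other genes are grey.

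Genes of the heart muscle were the main group higher in the AV canal. Of 36 tested genes of this list, 25 were higher in the AV canal and 0 in the outflow tract, with a median log2 difference of -6.30 beside 1.34 over all genes. Of the 25, 4 (nppa, myl7 and the myosin rows MYH6 and myh6) had served to place regions and are given as a description only, and 21 had not. As muscle genes helped to place the windows, the differences of these 21 are not independent of that placement. In heart 3, 15 of the 25 were higher in the AV canal (11 of them without a read in the outflow window) and 10 were higher in the outflow window. The summed level of the list outside both windows was 579, 205 and 540 in hearts 1, 2 and 3. In the AV canal it was 500, 563 and 889.

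The essential myosin light chain gene cmlc1 (ENSDARG00000032976) had levels of 1.49, 0.415 and 86.4 in the outflow tract and 82.2, 94.7 and 114 in the AV canal. Hearts 1 and 2 differed widely between the regions, by 55.03-fold and 229-fold, whereas heart 3 differed by 1.31-fold. Relative to all genes the log2 difference in hearts 1 and 2 was -7.96 (SE 0.72, adjusted p = 8.65e-17, quasi-likelihood test).

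The natriuretic peptide gene nppb (ENSDARG00000052958), a hormone gene of stretched heart muscle, had levels of 0.0240, 0.0518 and 0 in the outflow tract and 16.2, 21.9 and 31.2 in the AV canal. The regions did not overlap in any heart, and the AV canal was 675-fold and 423-fold higher in hearts 1 and 2. Outside both windows the level of nppb was 24.1, 5.25 and 25.0, in heart 1 above that of the AV canal. The log2 difference was -10.14 (SE 1.00, adjusted p = 3.56e-15, quasi-likelihood test). Its neighbour in function nppa, a gene of chamber muscle by which heart 1 was mapped, gave 0.366, 0.670 and 0 in the outflow tract and 30.8, 87.8 and 66.2 in the AV canal. Reads of nppa were present in 8 of 8, 10 of 10 and 6 of 6 AV canal sections of the 3 hearts, and how much chamber muscle these sections held was not tested.

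Thick filament genes moved alike in hearts 1 and 2. Myosin-binding protein C, mybpc3 (ENSDARG00000011615), gave 0.0900, 0 and 0 in the outflow tract and 10.3, 6.55 and 14.7 in the AV canal, with no overlap in the 3 hearts. The myosin heavy chain row MYH7 (ENSDARG00000079782) gave 1.04, 0.169 and 36.1 in the outflow tract and 35.98, 5.11 and 50.1 in the AV canal. Its log2 difference was -6.18 (SE 0.75, adjusted p = 5.68e-08, quasi-likelihood test). The giant sarcomere spring TTN had a log2 difference of -6.27 (adjusted p = 1.57e-07) and kept its direction in heart 3.

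The troponin rows named here had small outflow levels in hearts 1 and 2, whereas in heart 3 their outflow levels lay above the AV canal. The actin row actc1a did not share this, with 2.04 in the outflow window and 2.16 in the AV canal of heart 3. The troponin I row TNNI1 (ENSDARG00000052708) gave 0.576, 0.121 and 112 in the outflow tract and 22.1, 26.7 and 27.8 in the AV canal. Cardiac troponin C, tnnc1a (ENSDARG00000011400), gave 0.450, 0.0622 and 53.7 against 13.1, 20.6 and 28.3. Troponin T, TNNT2 (ENSDARG00000020610), gave 2.26, 0.249 and 83.7 against 32.2, 25.9 and 42.4. For each of these troponins the direction in heart 3 was opposite to that in hearts 1 and 2.

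Tropomyosin, tpm4a (ENSDARG00000023963), which covers the myosin sites of actin, gave 3.61, 1.90 and 303 in the outflow tract and 57.5, 72.7 and 84.8 in the AV canal. Its log2 difference in hearts 1 and 2, -5.79 (SE 0.66), was the smallest in size of the 10 genes named for the AV canal, with an adjusted p of 1.34e-08 in the quasi-likelihood test. In heart 3 it was 3.57-fold higher in the outflow window.

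Energy supply was represented by ckma (ENSDARG00000035327), the muscle creatine kinase that regenerates ATP, and by gapdh (ENSDARG00000043457), an enzyme of glycolysis. Levels of ckma were 1.31, 0.114 and 89.1 in the outflow tract and 20.1, 15.95 and 48.4 in the AV canal. Levels of gapdh were 0.618, 0.180 and 36.1 against 23.9, 27.2 and 59.7. The outflow tract of hearts 1 and 2 was low for both genes, and in heart 3 only gapdh kept this direction, with the AV canal 1.655-fold higher.

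Some genes had no read in any outflow sum, of which camk2a and BVES were chosen after their values were seen. The calcium signalling kinase camk2a had 453, 32 and 908 reads in the AV canal of the 3 hearts and 0 in each outflow tract, which made it at least 128-fold higher in heart 1 and 101-fold in heart 2 (3 reads taken as the floor in each heart). The membrane protein gene BVES, needed in heart and muscle cells of other vertebrates, had 327, 46 and 801 reads against 0, at least 92.6-fold in heart 1 and 145-fold in heart 2. Of the 57 genes, 10 lacked outflow reads in hearts 1 and 2, and 6 lacked them in all 3 hearts. Among calcium handling genes, the pump atp2a2a had 12, 21 and 29 outflow reads against 759, 171 and 2190. Its log2 difference in hearts 1 and 2 was -7.15 (adjusted p = 0.00118, quasi-likelihood test). By level, heart 3 ran the other way for atp2a2a, with 19.7 in the outflow window and 13.4 in the AV canal. The channel cacna1c had 1, 0 and 0 outflow reads against 429, 56 and 441 (adjusted p = 0.00137, quasi-likelihood test).

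**Figure D2:**
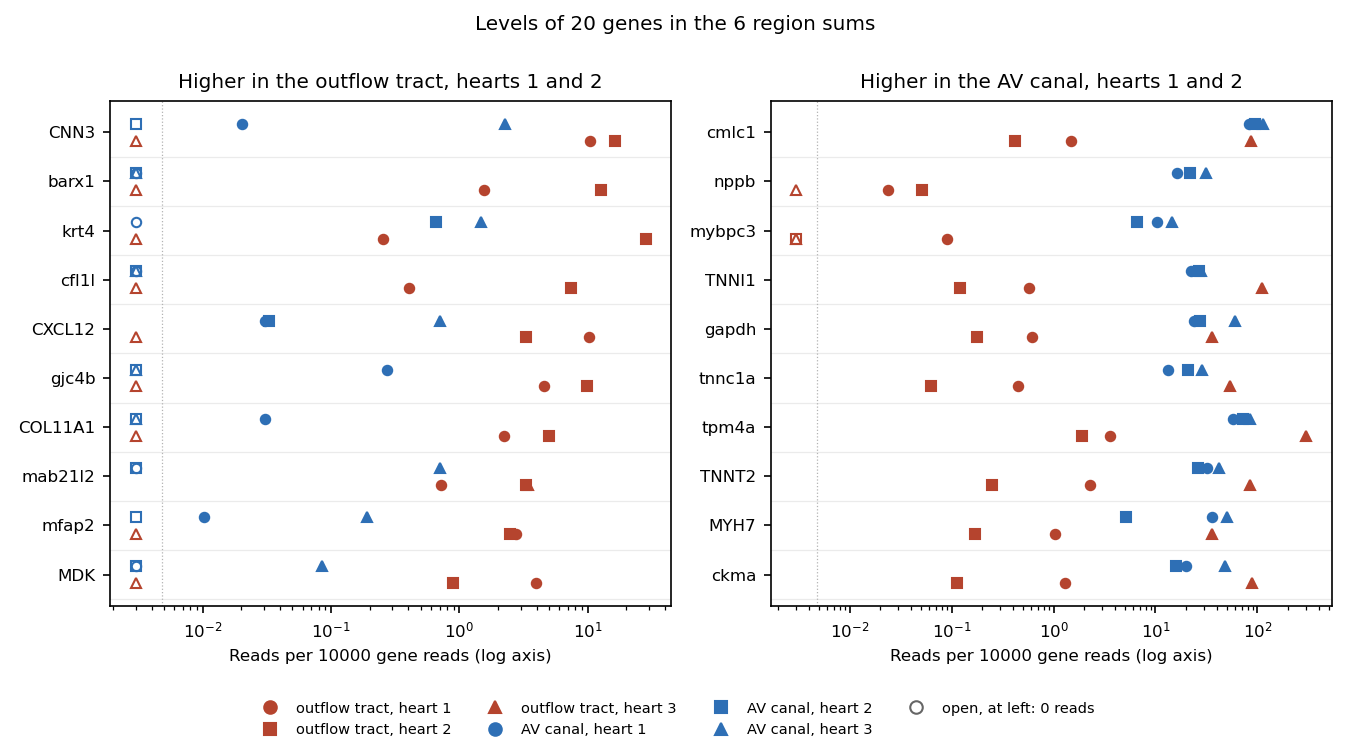
Reads per 10000 gene reads (log axis) of 20 genes in the 6 region sums, with the outflow tract in red, the AV canal in blue, hearts 1, 2 and 3 as circles, squares and triangles, and sums without reads as open symbols at the left. In the right panel the red triangles of heart 3 lie among or above the blue points, except for nppb and mybpc3 where heart 3 has no read, and in the left panel heart 3 has an open red triangle for each gene but mab21l2.

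Genes of pharyngeal and neural crest mesenchyme were read in the outflow tract and hardly in the AV canal. Of 15 tested, 3 were higher in the outflow tract and 0 higher in the AV canal, and the median log2 difference was 8.60 beside 1.34 over all genes. Of the 22 rows of the list, 15 and 22 had reads in the outflow tract of hearts 1 and 2. In the AV canal of these hearts 2 and 1 had reads. Most of the tested genes thus entered the test through outflow reads, so the median and the 0 are descriptions only. The summed level of the list was 11.2, 24.3 and 0 in the outflow tract and 2.19, 2.59 and 1.57 in the AV canal of hearts 1, 2 and 3. Hearts 1 and 2 thus had the higher sums in the outflow tract and heart 3 had no such read there.

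The homeobox gene barx1 (ENSDARG00000007407), a regulator of pharyngeal arch mesenchyme, had 257, 3654 and 0 reads in the outflow tract and 0 in every AV canal. With 3 reads taken as the floor of the AV canal in each heart, it was at least 100.9-fold higher in the outflow tract of heart 1 and 128-fold in heart 2 (adjusted p = 8.65e-17, quasi-likelihood test). The hindbrain and arch patterning gene HOXB3 had 132, 696 and 0 reads against 0 in every AV canal, at least 51.8-fold in heart 1 and 24.5-fold in heart 2 (adjusted p = 3.06e-05). Limb and craniofacial mesenchyme is known for PRRX1, and its row ENSDARG00000042027 had 290, 206 and 0 reads against 0, 0 and 1 (adjusted p = 0.00319). Outflow reads of all 3 genes came from hearts 1 and 2, with none from heart 3.

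Actin and elastic fibre genes of the outflow wall differed among themselves. Calponin 3, CNN3 (ENSDARG00000029856), an actin-binding protein of smooth muscle and mesenchyme, gave 10.5, 16.3 and 0 in the outflow tract and 0.0204, 0 and 2.27 in the AV canal. Its outflow level was far higher in hearts 1 and 2, whereas in heart 3 it was read in the AV canal and not in the outflow tract. All 370 AV canal reads of heart 3 came from 1 section. The log2 difference in hearts 1 and 2 was 8.38 (SE 0.98, adjusted p = 4.89e-19, quasi-likelihood test). Microfibril protein 2, mfap2 (ENSDARG00000059367), which decorates elastic fibres, gave 2.74, 2.46 and 0 against 0.0102, 0 and 0.190 (adjusted p = 3.27e-06).

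Of 21 tested genes of the outflow and smooth muscle list, CNN3 and mfap2 were higher in the outflow tract and the muscle filament gene DES in the AV canal (adjusted p = 0.00099), with a median log2 difference of 2.07. Smooth muscle actin, acta2, had 0, 7 and 0 reads in the outflow tract and 104, 18 and 640 in the AV canal and did not pass (adjusted p = 1). The transgelin row TAGLN, another smooth muscle marker, had 173, 619 and 31 reads against 288, 37 and 30. The smooth muscle genes of the list thus did not share a direction. The summed level of the list was 31.7, 30.02 and 28.6 in the outflow tract and 18.9, 28.9 and 32.4 in the AV canal, and these ranges overlapped.

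Fibrillar matrix genes were next. Of 30 tested collagen and matrix genes, 5 were higher in the outflow tract and 0 higher in the AV canal. The median of the list was 2.32 beside 1.34 over all genes. The summed level was 49.1, 32.6 and 26.5 against 11.3, 18.8 and 13.3, so that every outflow sum was above every AV canal sum, although in heart 3 all 39 outflow reads came from 1 gene, col4a1 of the basement membrane. The cartilage collagen COL11A1 (ENSDARG00000026165) gave 2.22, 5.01 and 0 in the outflow tract and 0.0306, 0 and 0 in the AV canal (log2 difference 5.93, SE 1.18, adjusted p = 2.99e-07). Both rows named COL12A1, a collagen that bridges fibrils, and tgfbi, an adhesion protein of matrix, were also higher, with 99, 503 and 0 reads of tgfbi in the outflow tract and 0 in every AV canal (adjusted p = 0.000994). The type I collagen genes had more reads but did not pass, such as col1a1a with 568, 691 and 0 against 175, 27 and 26 (adjusted p = 0.791).

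Cartilage genes overlapped with this list. The summed level of the 14 cartilage rows was 12.5, 16.0 and 0 in the outflow tract and 1.33, 5.70 and 1.81 in the AV canal. The gene col2a1b, which encodes type II collagen, was the only gene of the cartilage list past the test among 11, with 325, 763 and 0 reads against 4, 0 and 48 (log2 difference 5.94, adjusted p = 5.22e-05). COL11A1, named above, and SOX9, named below, also passed but were not counted in the cartilage list. The cartilage regulator sox5 had 267, 463 and 0 reads against 8, 9 and 47 (adjusted p = 0.159).

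**Figure D3:**
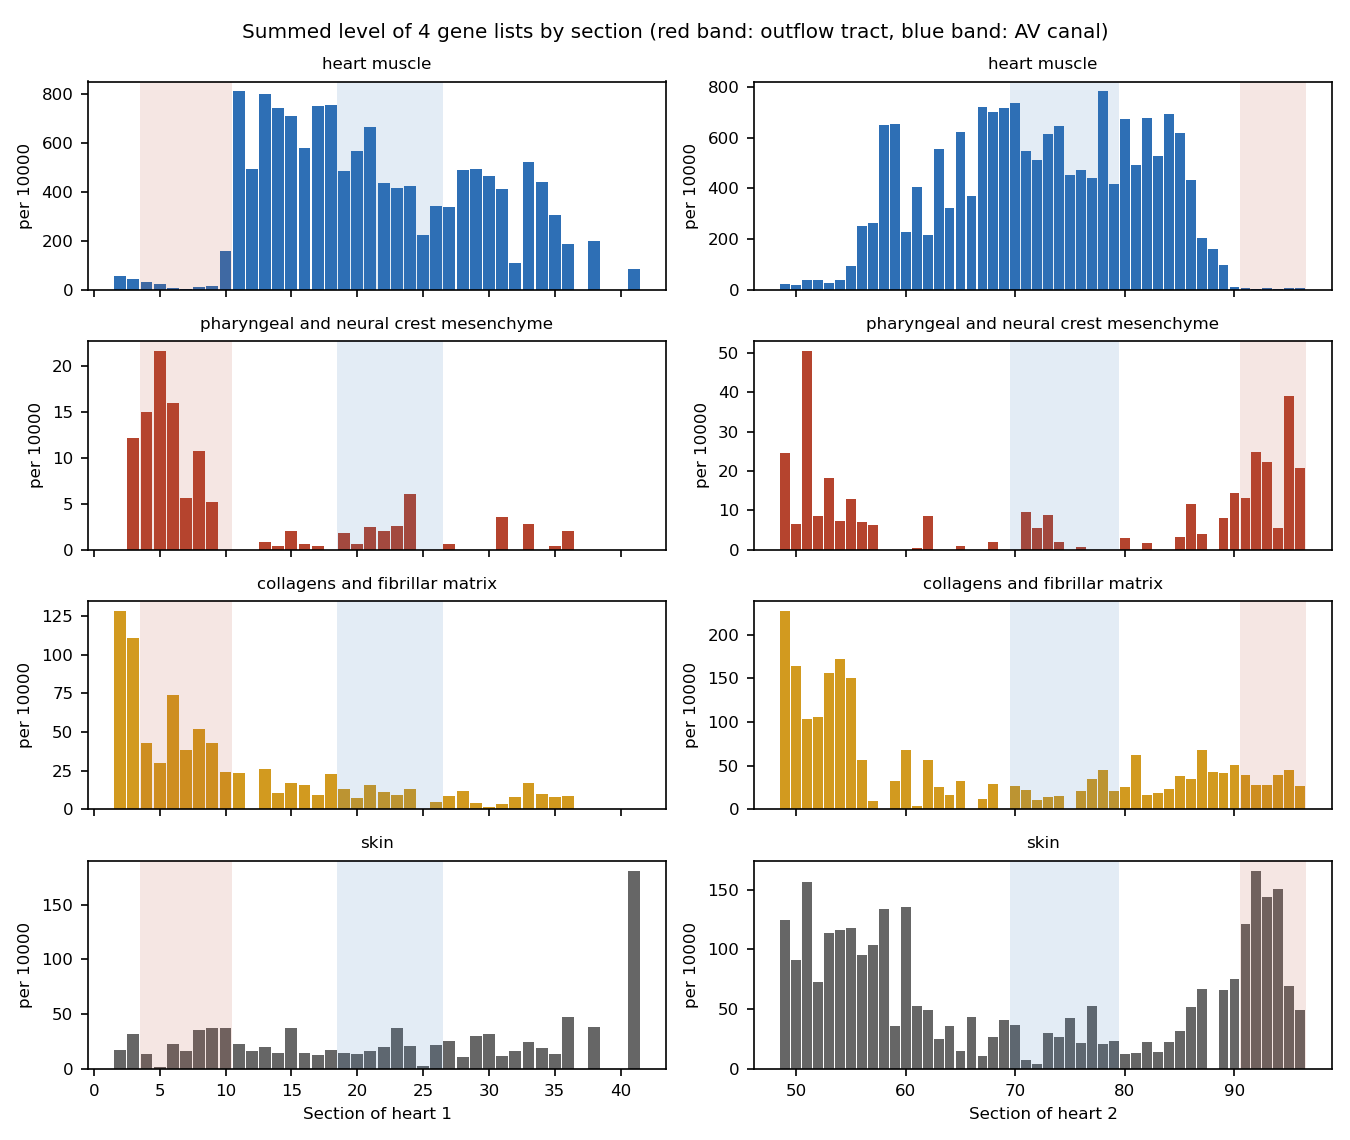
Summed reads per 10000 gene reads of 4 gene lists in each section of heart 1 (left) and heart 2 (right) with enough reads to plot, with the outflow tract window shaded red and the AV canal window shaded blue. Heart muscle genes lie between 4.59 and 160 in the outflow sections and between 226 and 665 in the AV canal sections of heart 1, and between 3.78 and 8.21 and between 417 and 782 in heart 2, whereas in heart 2 mesenchyme, matrix and skin genes are also high at the other end of the heart.

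Muscle genes differed widely between the outflow and AV canal sections of hearts 1 and 2. In heart 1 the heart muscle list had a median of 17.2 over the outflow sections and 431 over the AV canal sections, and the highest outflow value, 160, was that of section 10, next to the ventricle. In heart 2 the medians were 5.37 and 530. Outflow and AV canal sections did not overlap for this list in either heart. The list holds genes that helped to place the windows, so this separation is not independent of that placement. Sections of 1 heart are also not replicates. Mesenchyme genes had medians of 10.7 and 1.90 in heart 1 and 21.6 and 0.337 in heart 2, with sections that overlapped.

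The genes higher in the outflow tract were not all confined to that window. In heart 2 the level of CNN3 was 10.95 and that of CXCL12 was 6.56 in the sections outside both windows, against 16.3 and 3.32 in the outflow tract. The corresponding levels of heart 1 were 0 and 0.0221. Of the 2042824 reads outside both windows in heart 2, 394363 and 699259 came from sections 89 and 90, which border the outflow window. The share of these bordering sections in the levels of CNN3 and CXCL12 was not tested. The mesenchyme list reached 50.4 in a section of heart 2 outside both windows, above the 39.0 of its highest outflow section, and 12.2 in heart 1, below the 21.7 of its highest outflow section.

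Skin genes rose with the mesenchyme genes in heart 2. The summed level of the skin list was 25.6, 129 and 9.52 in the outflow tract and 18.5, 24.8 and 15.5 in the AV canal, and 3 of 12 tested genes were higher in the outflow tract with a median of 3.14. The epidermal keratin krt4 (ENSDARG00000017624) gave 0.252, 28.3 and 0 against 0, 0.655 and 1.46. Nearly all of its outflow reads, 8189 of them, came from heart 2, and 42 came from heart 1 (log2 difference 5.13, SE 0.84, adjusted p = 2.61e-11, quasi-likelihood test). The others were the keratin genes cyt1l and krt91, with 3 and 17 outflow reads in heart 1 and 851 and 1232 in heart 2. The cofilin gene cfl1l (ENSDARG00000012972), whose product severs actin filaments, had 68, 2153 and 0 reads against 0 in every AV canal, at least 26.7-fold in heart 1 and 75.7-fold in heart 2. The part of skin cells in the results for the outflow tract of heart 2 was not tested.

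Cell guidance and chemokine genes were read more in the outflow tract of hearts 1 and 2. Of 35 tested, 2 were higher in the outflow tract (0.697% over all genes) and 0 higher in the AV canal (0.593% over all genes). The median of the list was 2.69 beside 1.34 over all genes. Its summed level was 28.5, 17.5 and 0 against 7.19, 6.78 and 16.9. The chemokine row CXCL12 (ENSDARG00000037116), a signal that attracts migrating cells and growing vessels, gave 10.2, 3.32 and 0 in the outflow tract and 0.0306, 0.0328 and 0.710 in the AV canal. It was 335-fold higher in the outflow tract of heart 1, and the log2 difference was 6.44 (SE 1.07, adjusted p = 2.63e-10, quasi-likelihood test). The ephrin receptor gene epha4b had 313, 533 and 0 reads against 0, 0 and 12, at least 123-fold in heart 1 and 18.7-fold in heart 2 (adjusted p = 8.90e-06). The ephrin ligand row EFNB2 with the most reads had 653, 491 and 0 against 83, 9 and 97 (adjusted p = 0.178), and neither row of that name passed. The rows of the CXCL12 receptors CXCR4 and ACKR3 that were tested did not pass either, with 106, 395 and 0 reads of ACKR3 against 6, 0 and 0 (adjusted p = 0.115).

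The remaining genes named by rank were of mixed function. The connexin gene gjc4b (ENSDARG00000007099), which forms gap junctions, gave 4.60, 9.79 and 0 in the outflow tract and 0.275, 0 and 0 in the AV canal, 16.7-fold in heart 1 (log2 difference 4.88, SE 1.00, adjusted p = 2.34e-07, quasi-likelihood test). The developmental gene mab21l2 (ENSDARG00000015266) had 119, 950 and 5 reads against 0, 0 and 116, at least 46.7-fold in heart 1 and 33.4-fold in heart 2. It was the only gene of the 10 with a read in the outflow window of heart 3, where its level of 3.40 was above the 0.710 of the AV canal. The growth factor midkine, MDK (ENSDARG00000020708), had 658, 259 and 0 reads against 0, 0 and 14, at least 258-fold in heart 1 and 9.10-fold in heart 2, and a second row of that name was also higher (adjusted p = 0.00247). The last 2 rows may be copies of a duplicated gene that share reads.

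**Figure D4:**
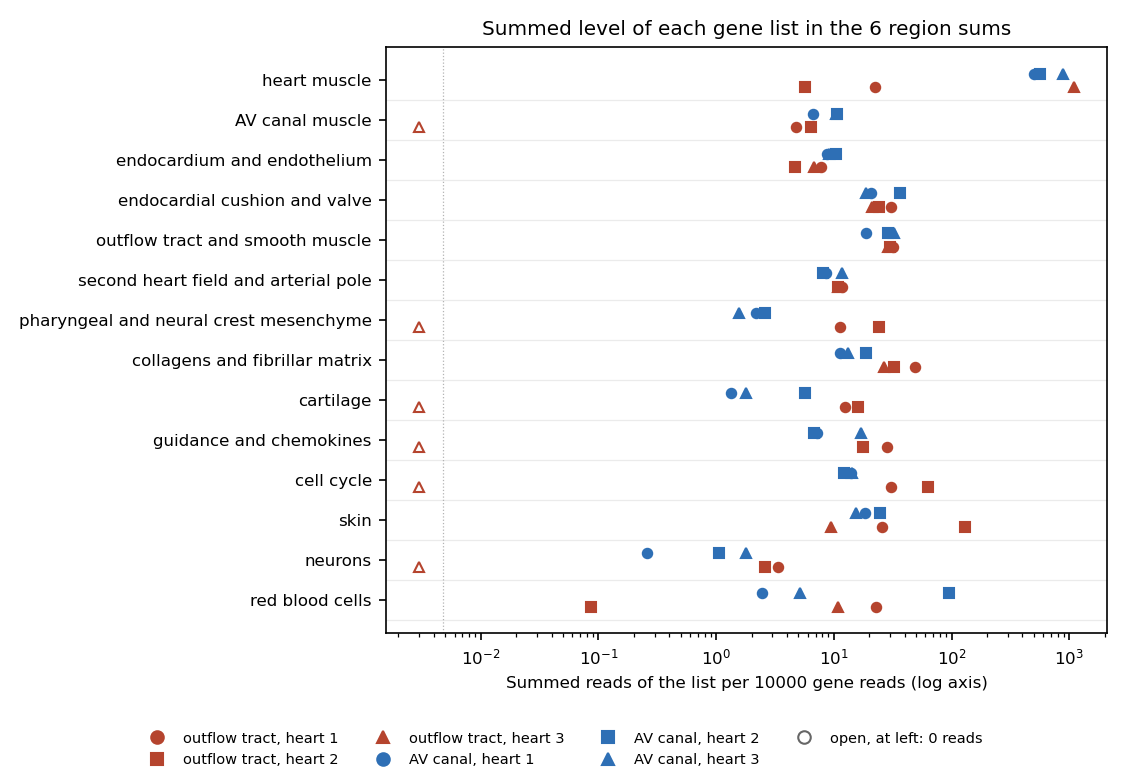
Summed reads per 10000 gene reads (log axis) of 14 gene lists in the 6 region sums, with the outflow tract in red, the AV canal in blue, hearts 1, 2 and 3 as circles, squares and triangles, and sums without reads as open symbols at the left. Heart muscle separates the outflow tract of hearts 1 and 2 (22.5 and 5.69) from the other sums (500 to 1101), and the pharyngeal mesenchyme list runs the other way with an open triangle for heart 3.

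The genes of cushions and valves did not share a direction. Of 26 tested, 6 were higher in the outflow tract and 1 higher in the AV canal, and the median log2 difference, 0.94, was below the 1.34 of all genes. Summed levels were 30.4, 24.4 and 21.1 in the outflow tract and 20.6, 36.7 and 18.7 in the AV canal, and these overlapped. The 6 were matrix genes (TNC, mmp2, fn1b and dcn) and the transcription factors of migrating mesenchyme SOX9 and snai2. Of these, TNC, mmp2, fn1b and SOX9 had no read in the AV canal of hearts 1 and 2. They entered the test only through outflow reads, so the count of 6 against 1 is a description only.

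The adhesive glycoprotein TNC had 203, 568 and 0 reads in the outflow tract and 0, 0 and 73 in the AV canal, at least 79.7-fold in heart 1 and 19.97-fold in heart 2 (adjusted p = 4.28e-05, quasi-likelihood test). The gelatinase mmp2, which cuts basement membrane collagen, had 323, 386 and 0 reads and none in any AV canal, at least 127-fold in heart 1 and 13.6-fold in heart 2 (adjusted p = 8.37e-05). SOX9, a regulator of valve mesenchyme and of cartilage, had 73, 497 and 0 reads against 0 in every AV canal, at least 28.7-fold in heart 1 and 17.5-fold in heart 2 (adjusted p = 0.002). These genes are also known from mesenchyme outside the heart, and which cells gave the reads was not tested.

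The cell adhesion gene ALCAM, whose product zebrafish heart muscle also carries on its surface, was the 1 gene of the list higher in the AV canal. Its levels were 0.792, 0.905 and 13.6 in the outflow tract and 8.20, 15.13 and 11.0 in the AV canal. The AV canal was 10.4-fold and 16.7-fold higher in hearts 1 and 2 (log2 difference -4.88, SE 0.85, adjusted p = 0.00391), and heart 3 was 1.24-fold the other way. The hyaluronan link protein row HAPLN1, chosen after its values were seen, had 2, 18 and 0 reads against 265, 37 and 299 and did not pass (adjusted p = 0.478). Its paralogue hapln1a had 616, 1301 and 0 reads against 123, 143 and 100. In levels these were 3.70, 4.49 and 0 against 0.627, 4.68 and 0.612. The level of hapln1a was thus higher in the outflow tract of heart 1 and near equal in heart 2. Reads of the matrix gene spp1 were found in 1 of the 6 sums, the AV canal of heart 1, with 146 reads, and it was not tested in hearts 1 and 2.

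Genes of AV canal muscle were not called. Of 6 tested, 0 passed in either direction, and their median log2 difference was -1.39 beside 1.34 over all genes. The ligand gene bmp4 had 102, 72 and 0 reads in the outflow tract and 526, 71 and 453 in the AV canal. Its target tbx2b, a repressor of chamber genes, had 145, 412 and 0 against 426, 75 and 336, and the related row TBX2 had 248, 1072 and 0 against 94, 85 and 317 (adjusted p = 1). As bmp4 and tbx2b helped to place the AV canal of heart 1, their values are a description only. In levels, bmp4 was 4.38-fold and 9.35-fold higher in the AV canal of hearts 1 and 2. The level of tbx2b was also higher in the AV canal of both these hearts, whereas that of TBX2 was higher in their outflow tract.

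Second heart field genes had a median log2 difference of 4.70 over 18 tested genes, of which 1 was higher in the outflow tract and 0 higher in the AV canal. The genes of this list given here did not pass the test. Reads of tbx1, the arch and outflow gene, numbered 51, 124 and 0 against 0 in every AV canal (adjusted p = 0.619). The muscle progenitor row NKX2-5 pointed the other way, with 10, 6 and 0 reads against 418, 19 and 487 (adjusted p = 0.228), and hand2 was read in both regions with 1060, 1011 and 9 against 966, 138 and 511.

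The endocardium, which lines both regions, gave 0 calls among 18 tested genes, with a median of -0.58 beside 1.34 over all genes. Summed levels were 7.70, 4.64 and 6.80 in the outflow tract and 8.80, 10.4 and 9.08 in the AV canal. All 3 AV canal sums lay above all 3 outflow sums. The outflow sum of heart 3, however, rested on 10 reads of 1 gene. Its 95% Wilson interval, 3.70 to 12.5, covered all 3 AV canal levels. The junction gene cdh5 had 272, 161 and 0 reads against 585, 127 and 701 (adjusted p = 1, quasi-likelihood test). In heart 2 these reads came from sums of 2895368 and 305324 gene reads. Relative to gene reads, cdh5 was thus higher in the AV canal of heart 2, as it was in heart 1.

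Signalling lists gave few calls. The BMP and TGF-beta list had a median of 1.603, beside 1.34 over all genes. In it 2 of 45 tested genes were higher in the outflow tract and 0 higher in the AV canal. They were ID2, a target gene of BMP signals, with 395, 397 and 0 reads against 2, 0 and 46 (adjusted p = 0.000336), and tgfbi, which also stands in the matrix list. The related target id1 was read throughout hearts 1 and 2, with 2005 and 5146 reads in the outflow tract and 830 and 286 in the AV canal, and did not pass (adjusted p = 0.603). Notch genes gave 0 calls of 18 (median 0.58), with the receptor notch3 lowest in p (272, 268 and 0 reads against 14, 0 and 111, adjusted p = 0.0896). Wnt genes gave 0 of 41 (median 1.38), where the inhibitor sost had 95, 224 and 0 reads against 0 in every AV canal (adjusted p = 0.086). Retinoic acid genes gave 0 of 12 (median 4.11), with the receptor RARG at 265, 179 and 0 against 11, 0 and 45 (adjusted p = 0.174).

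Dividing cells were marked by the cell cycle list, whose summed level was 30.7, 63.6 and 0 in the outflow tract and 14.1, 12.2 and 14.2 in the AV canal. Of 29 tested genes 1, the mitotic cyclin CCNB1, was higher in the outflow tract, with 73, 389 and 0 reads against 0, 0 and 37 (adjusted p = 0.0101). The median of the list was 2.07 beside 1.34 over all genes. The replication clamp pcna was 2.26-fold and 8.07-fold higher on the outflow side in hearts 1 and 2 but did not pass (adjusted p = 0.066). Of 18 stress genes 1 passed, the small heat shock gene hspb1, abundant in heart muscle, with 29, 59 and 37 reads against 2096, 363 and 1728 (log2 difference -7.05, adjusted p = 4.83e-07). By level, heart 3 ran the other way for hspb1, with 25.2 in the outflow window and 10.6 in the AV canal.

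Markers of other cells moved with the regions in part. Neuronal genes summed to 3.37, 2.58 and 0 in the outflow tract and 0.260, 1.05 and 1.78 in the AV canal, with 0 of 8 past the test. Red blood cell genes summed to 22.7, 0.0863 and 10.9 against 2.47, 95.6 and 5.19, so that heart 1 and heart 2 ran in opposite directions, and 0 of 11 passed. In heart 2 the embryonic globin hbae3 had 1563 reads in the AV canal and 0 in the outflow tract, against 6 and 1946 in heart 1. Neutrophil and macrophage genes gave 0 calls of 5 and liver and yolk genes 0 of 2. Skeletal muscle genes gave 1 call of 8, the actin row ACTA1 that the heart muscle list also holds, and among the 6 sums their defining myosin rows myhz1.1, myhz1.2 and myhz2 had reads only in the outflow tract of heart 1, between 8 and 39. The part of these cells in the results was not tested.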

How the data were processed

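The authors cut 3 wild-type hearts into 10 µm sections, made CEL-seq libraries, sequenced them on an Illumina NextSeq and mapped reads to Zv9 (the processing notes name BWA 0.6.2). They deposited 1 table per heart of whole-number read counts, without normalization. Use of molecular identifiers is not stated. Columns outside the tissue (171) and spike-ins were left out, and the inverted block of heart 1 was put in order. Regions of heart 1 follow the authors' marker genes, and hearts 2 and 3 were placed by ventricular myosin (the row MYH6) and atrial myosin (myh6). For each region of each heart the counts were added up, with the heart as a block since both regions come from the same animal.

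Genes with at least 10 reads and reads in 2 hearts were tested with a negative binomial quasi-likelihood test (trimmed mean factors, trended dispersion, variances squeezed by limma 3.58.1 in R 4.3.3, otherwise Python 3.11.15), and p-values were adjusted by Benjamini-Hochberg. The code was made for the present comparison and checked on simulated data. The plan named edgeR and DESeq2, which could not be used because an automatic unit check did not accept these tables as counts. In all, 3 versions of the count test were run with results seen, and the trended one was kept because the planned tool works so. The planned tool was run outside the analysis to compare the versions, and none of its values are given.

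Named genes are the 2 given markers, the 10 smallest p per direction with the same sign in hearts 1 and 2 (rows without a name and genes that placed a region passed over), and up to 4 per gene list (those past the test, then those with most reads). Genes named beyond this, such as camk2a, BVES, acta2, TAGLN, HAPLN1, spp1, sox5, ACKR3, tbx1, NKX2-5, notch3, sost and RARG, and the last called genes of lists with more than 4 calls, were chosen after their values were seen. The 22 lists, the windows and the members were chosen with earlier results of these data known. Of 16023 gene rows, 12905 had a symbol in the reference table. Capitals mark the symbol of a human match, and near-identical copies may share reads. Alternatives were RLE factors, total reads, filters, block, windows, leaving out each heart, section weights and limma on log2 values. Some results are not reported here.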

Additional observations from a re-analysis of the deposited data

How the results depend on the processing

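Over 3 hearts, leaving out each replicate in turn gave 0 to 67 genes higher in the outflow tract and 0 to 57 higher in the AV canal, the highest without heart 3. The fit with no replicate block called 1 and 0, the version with a common dispersion 1 and 20, and limma 0 and 1 on log2 CPM and 0 and 3 on mean section shares. These last counts are not firm, and no gene is named from them. RLE factors, total reads, both filters, the most abundant row left out and both window changes gave 0 and 0.

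In hearts 1 and 2 (67 and 57), total gene reads gave 119 and 80, the AV canal of heart 1 outside the ventricle 101 and 21, and the common dispersion 113 and 80. With the variance held at 1 or above, 0 and 0 passed. No replicate block gave 96 and 66, and of the 124 genes 108 were called there too. RLE factors shared 116, and limma 83 on log2 CPM and 65 on section shares. The log2 difference of anxa5b before the shift by the median of all genes went from -0.11 to 0.37 on mean section shares, while relative to that median it was -1.46 and -0.08, with the same sign. Of 24 named genes, 22 had a call in hearts 1 and 2. All 22 lost it with heart 3, and all 22 with the variance held at 1 or above, while the direction of their fold changes stayed the same. The other 2, has2 and anxa5b, had no call to lose. The causes were not tested.

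The DESeq2 alternative was not run. Leaving out heart 1 or 2 from the fit of 2 hearts leaves 1 heart and no residual degrees of freedom, so it was not run. Depth limits the AV canal of heart 2 and the outflow tract of heart 3 most. The alternatives for hearts 1 and 2 and both other versions of the test were chosen after seeing the data.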

Other observations

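Several of the called genes stood in no gene list, and the following were chosen after their values were seen. In the outflow tract the transcription factor foxd1 had 157, 691 and 0 reads in hearts 1, 2 and 3, the prostaglandin-degrading enzyme hpgd had 747, 177 and 0, and the mesenchymal surface gene cd248b had 246, 393 and 0. None of these had a read in the AV canal of any heart, which made them at least 61.6-fold, 293-fold and 96.5-fold higher in the outflow tract of heart 1, and at least 24.3-fold, 6.22-fold and 13.8-fold higher in heart 2 (3 reads taken as the floor in each heart). In heart 2 the level of hpgd outside both windows, 2.64, was above the 0.611 of the outflow tract. Those of foxd1 and cd248b outside, 0.132 and 0.925, were below the 2.39 and 1.36 of the outflow tract. The tight junction gene cldn7b, an epithelial gene, had 35, 472 and 0 reads against 0 in every AV canal, at least 13.7-fold in heart 1 and 16.6-fold in heart 2.

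In the AV canal the enzymes of glycolysis ALDOA and ENO1 were called beside gapdh. ALDOA had 1387, 256 and 2752 reads in the AV canal and 167, 0 and 42 in the outflow tract (adjusted p = 0.000188, quasi-likelihood test). By level, heart 3 ran the other way for ALDOA, with 28.57 in the outflow window and 16.85 in the AV canal. ENO1 had 1607, 133 and 1787 reads against 29, 97 and 0 (adjusted p = 0.00186), which was 47.07-fold and 13-fold in hearts 1 and 2. The heart muscle repeat protein gene LRRC10 had 430, 73 and 1359 reads against 1, 0 and 0 (adjusted p = 0.000835). The fin fold gene and2 had 117, 182 and 454 reads against 0 in every outflow tract, at least 33.1-fold in heart 1 and 575-fold in heart 2 (adjusted p = 0.0156), and its level outside both windows was 0.199, 0.127 and 0.0424 beside 0.596, 5.96 and 2.78 in the AV canal.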
